A study of Homo sapiens with 36 samples.

Results

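Ribosome loading, the change in ribosome footprints beyond the change in RNA, was compared between 2 derivatives of BJ human skin fibroblasts, ELR and EL. Of the 36 libraries of the series, 6 make up the comparison, chosen by their labels. ELR had 2 cycloheximide footprint libraries and 1 RNA library. EL also had 2 cycloheximide footprint libraries and 1 RNA library. Cells were treated with 100 µg/ml cycloheximide, which arrests elongating ribosomes, before lysis and nuclease digestion. The RNA came from total RNA depleted of ribosomal RNA. The labels do not spell out EL or ELR or name the genes each line carries. As background, BJ series of this kind carry telomerase (hTERT) and the early region of SV40, to which ELR adds an oncogenic HRAS. The introduced genes are driven by foreign promoters in such lines, and each line is 1 derivative. No label says that the 2 footprint libraries of a line came from separate cultures, so the p-values measure the spread between these libraries, which may be technical.

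A ribosome-protected fragment marks a message under translation, so footprints per message measure how heavily that message is used. Messages that begin with a run of pyrimidines (TOP messages), mainly those of ribosomal proteins, are translated in step with mTOR, the kinase that senses nutrients and growth factors. ATF4, the transcription factor of the amino acid stress response, is translated past short upstream reading frames when the initiation factor eIF2 is phosphorylated. ATF4 activates genes for amino acid synthesis, amino acid import and the charging of transfer RNA.

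Library totals ran between 1843922 and 2606905 counts, with 1 transcript kept per gene symbol. Over the genes compared, the 2 footprint libraries of a line differed by more than counting noise (chi-square per gene 1.114 in ELR and 1.168 in EL), so they were kept as 2 replicates. HRAS had 364 and 284 footprint counts in ELR, against 89 and 73 in EL, higher in the line whose name carries an R. Vimentin (VIM), an intermediate filament of fibroblasts, was high in all 6 libraries. Of 16 fibroblast markers, 14 and 13 had a count in the ELR footprint libraries, against 16 and 16 in EL. DCN had 0 counts in both ELR footprint libraries, against 51 and 35 in EL. PDGFRA likewise had 0 counts in ELR footprints, against 13 and 5 in EL. Summed over the list, footprints reached 10557 and 10772 CPM (read counts scaled to library size) in ELR and 14059 and 13931 CPM in EL, most of it VIM. Of 20 epithelial markers, the keratins KRT18 and KRT7 were present in both lines, while CDH1, GRHL2, ELF3 and CLDN7 had no footprint in any library. DSP had 0 CPM in both ELR footprint libraries, against 43.6 and 49.1 CPM in EL. CLDN1 went the other way, with 11.4 and 16.6 CPM of footprints in ELR, against 1.46 and 0.435 CPM in EL. The summed level of 20 epithelial markers was 1163 and 1182 CPM in ELR footprints and 1536 and 1606 CPM in EL footprints. Leukocyte and endothelial markers summed to at most 7.25 CPM in any library. KRT19, another keratin, had 28.6 and 26.4 CPM of footprints in ELR, against 467 and 484 CPM in EL. In such bulk libraries, fewer cells of a type and less RNA per cell cannot be told apart. The part of fibroblast and epithelial marker differences in the results was not tested.

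Footprints and RNA mostly differed together between the lines. Across the 10540 genes tested, the footprint change followed the RNA ratio (Pearson r 0.79, Spearman rho 0.63, a description across genes, which are not replicates). The median loading change, ELR over EL, was -0.05 on the log2 scale, and 90% of genes lay between -1.03 and 0.88. Cycloheximide footprints differed at 3519 genes, 33.4% of those tested, with 1693 higher in ELR (16.1%) and 1826 lower (17.3%), by edgeR's quasi-likelihood test at a Benjamini-Hochberg adjusted p under 0.05. Loading differed at 320 genes, or 3.04%, by the same test. It was higher in ELR at 114 genes (1.08%) and lower at 206 (1.95%). Size factors in place of TMM (trimmed mean of M-values) scaling gave 141 higher and 136 lower. Of the 206 genes with lower loading, 169 had an RNA ratio above 0, as did 5595 of all 10540 genes tested. Of the 114 with higher loading, 64 had an RNA ratio below 0, as did 4945 of all genes. Loading subtracts the RNA ratio, so calls of lower loading favour genes with a high RNA ratio, and the reverse. These counts are therefore no separate result about RNA.

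Every loading test rests on 1 RNA library per line. The fit takes the RNA libraries to vary as little as the duplicate footprint libraries, whose biological coefficient of variation was 1.79%. A wider spread came from the MCF10A-ER-Src cells of the same series, from 4 uninduced RNA libraries and the tamoxifen footprint duplicates. The RNA libraries were ethanol controls of different times and a sample from the start of the tamoxifen series. They were treated as replicates, so differences between them may add to the spread. The RNA libraries alone gave 14.4%, the footprint duplicates alone gave 12.3%, and both kinds together gave 13.7%. With that wider spread, 5 genes passed (0.0474%), all lower in ELR, and no gene was called higher. At an unadjusted p under 0.05 by edgeR's likelihood ratio test, 125 of the 10540 genes were higher and 204 lower. Together these are fewer than such a threshold lets through when no gene differs, so they are not read as differences. Footprints alone still differed at 14.2% of genes with that spread, 5.65% higher and 8.55% lower in ELR. The number of calls also depended on the libraries. It was 33 without ELR footprint replicate 1, 48 without ELR replicate 2, 241 without EL replicate 1 and 152 without EL replicate 2. In each of these fits, all 320 genes kept the sign of their loading change. The fits reuse both RNA libraries and the remaining footprint libraries, so a kept sign does not test how much RNA varies.

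**Figure D1:**
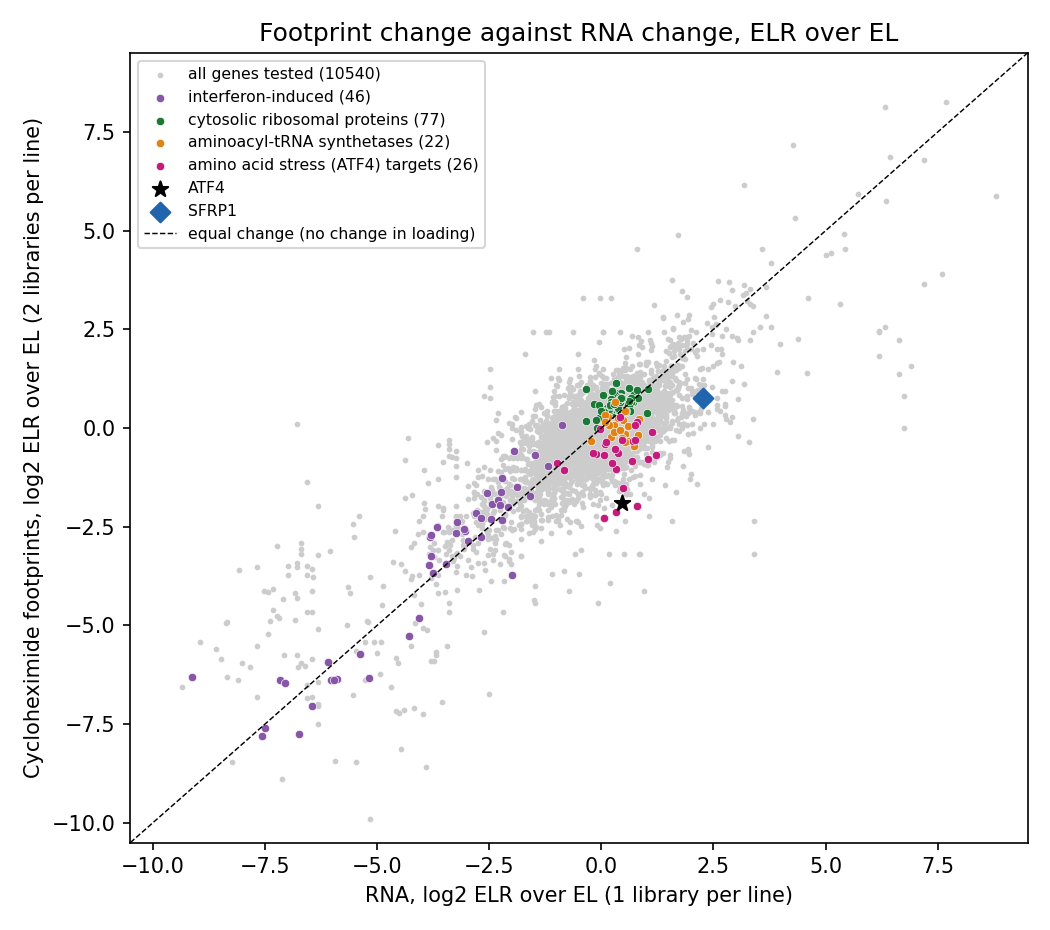
Log2 ratio of RNA (x axis, 1 library per line) against log2 change in cycloheximide footprints (y axis, 2 libraries per line), ELR over EL, for 10540 genes; the dashed line marks equal change. Ribosomal protein genes lie mostly above the line, amino acid stress targets and ATF4 (star) below it, and interferon-induced genes follow it far into the lower left.

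The 5 genes that passed with both estimates of the spread were ATF4, its targets ASNS, PSAT1 and ALDH1L2, and SFRP1. ATF4 itself (NM_001675, chr22:39915700-39918688, hg19) showed the widest gap between message and footprints among them. ATF4 footprints were 16 and 15.1 CPM in ELR, against 56.8 and 60.4 CPM in EL, normalised by TMM. EL had more than 3 times the ELR level of ATF4 footprints, which were called lower in ELR, as at 17.3% of all genes tested. ATF4 RNA was 716 CPM in ELR and 521 CPM in EL, the opposite order. Footprints therefore changed by -1.90 ± 0.17 (log2, SE) and RNA by 0.46, a loading change of -2.36 ± 0.18 (edgeR adjusted p = 2.92e-13, and 1.71e-06 with the ER-Src spread). Without any 1 of the footprint libraries ATF4 stayed called. On the scale of log2 footprints per RNA, ATF4 stood at -5.63 in ELR, -3.33 in EL and -2.86 in EH, the third BJ derivative, where the median gene lay at -0.20 in ELR, -0.19 in EL and -0.16 in EH.

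ASNS, asparagine synthetase (NM_001673, chr7:97480989-97501854, hg19), had 38.6 and 42.5 CPM of footprints in ELR, against 110 and 124 CPM in EL. Its RNA was 57.6 CPM in ELR and 41.2 CPM in EL. Loading changed by -2.02 ± 0.23 (edgeR adjusted p = 1.33e-08, and 0.00048 with the ER-Src spread). PSAT1, which makes phosphoserine on the way to serine (NM_058179, chr9:80912041-80945009, hg19), had 107 and 109 CPM of footprints in ELR, against 184 and 188 CPM in EL. PSAT1 RNA went the other way, at 190 CPM in ELR and 91.8 CPM in EL. Its loading change was -1.84 ± 0.14 (edgeR adjusted p = 2.92e-13, and 0.000202 with the ER-Src spread). ALDH1L2, a mitochondrial enzyme of folate metabolism (NM_001034173, chr12:105413562-105501421, hg19), had nearly equal RNA, 71.3 CPM in ELR and 69.1 CPM in EL. Its footprints were 8.22 and 4.66 CPM in ELR, from 20 and 8 counts, against 36 and 29.4 CPM in EL. Loading changed by -2.33 ± 0.32 (edgeR adjusted p = 1.22e-06, and 0.00222 with the ER-Src spread). All 3 enzymes had footprints called lower in ELR, as at 17.3% of all genes tested, while RNA was nearly equal or higher in ELR.

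SFRP1, a secreted antagonist of Wnt signalling (NM_003012), differed from the others in that footprints and RNA were both higher in ELR. Its footprints were 725 and 731 CPM in ELR, against 427 and 433 CPM in EL. RNA was 528 CPM in ELR and 110 CPM in EL, so the message increased by more than its footprints did. The loading change was -1.50 ± 0.10 (edgeR adjusted p = 5.74e-15, and 0.0163 with the ER-Src spread).

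**Figure D2:**
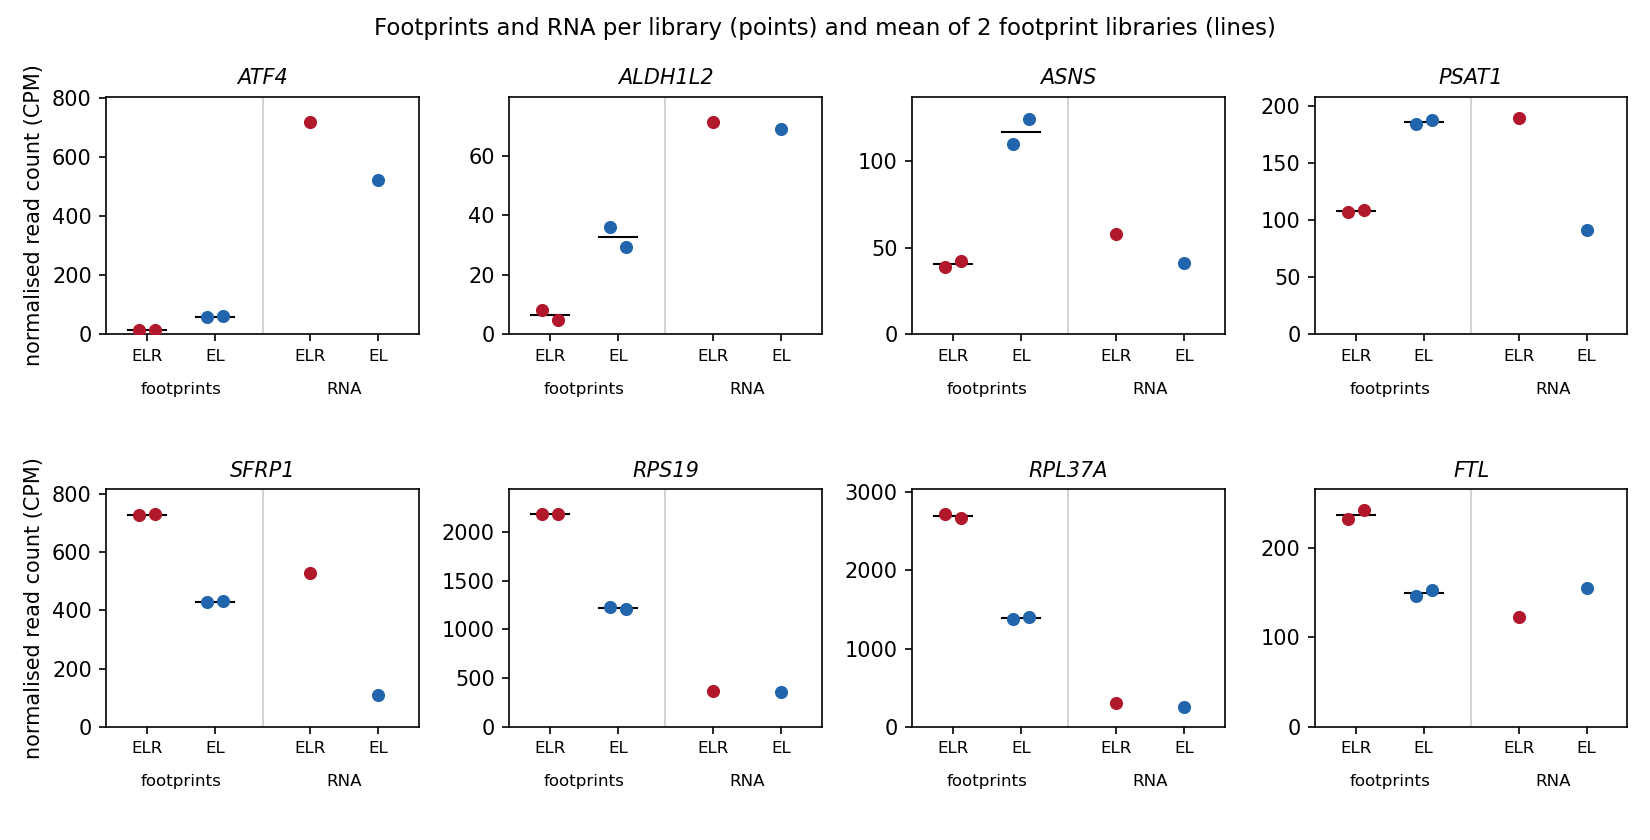
Normalised read count (CPM, linear axes from 0) of 8 genes in each library, ELR left of EL, with footprints on the left of each panel and RNA on the right; bars mark the mean of 2 footprint libraries. ATF4, ALDH1L2 and ASNS had lower footprints in ELR with RNA that was not lower, PSAT1 likewise, SFRP1 was higher in ELR in both, by less in footprints, and RPS19, RPL37A and FTL had higher footprints in ELR with RNA that was close to the EL level or, for FTL, below it.

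Targets of ATF4 as a group had lower loading in ELR. Of 26 measured amino acid stress genes, 15 were called lower and none higher, where 1.95% of all genes were called lower. Their median loading change was -0.91, beside -0.05 for all genes. The median footprint change was -0.64 and the median RNA ratio 0.35. By edgeR's test, 16 of the 26 had lower footprints, where 17.3% of all genes tested did. Among the called members were MTHFD2, of mitochondrial folate metabolism, and SLC3A2, the shared chain of several amino acid transporters. MTHFD2 footprints were 157 and 174 CPM in ELR, against 214 and 201 CPM in EL, while its RNA was 271 CPM in ELR and 167 CPM in EL. Loading of MTHFD2 changed by -1.04 ± 0.12 (edgeR adjusted p = 5.26e-08). SLC3A2 footprints were 203 and 173 CPM in ELR, against 275 and 268 CPM in EL, with RNA at 215 CPM in ELR and 173 CPM in EL. Its loading change was -0.83 ± 0.12 (edgeR adjusted p = 9.08e-06). The count of called targets was 6 without ELR replicate 1, 9 without ELR replicate 2, 13 without EL replicate 1, 9 without EL replicate 2 and 3 with the ER-Src spread.

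The median of these targets on the scale of log2 footprints per RNA was -0.25 in ELR, 0.60 in EL and 0.79 in EH. EL and EH were closer to each other than to ELR in these medians, each of which rests on 1 RNA library. Footprints after harringtonine, which holds ribosomes at start codons, were divided by the same RNA libraries and are therefore not independent of the values above. The harringtonine libraries of the lines held 171554 to 215143 counts each, far fewer than the 6 libraries above, so fewer differences are detectable. With harringtonine footprints, loading was called at 0.489% of the 5730 genes tested. The median loading change of the 16 targets measured was -1.08, and 1 of them was called lower. ATF4 was not called with harringtonine, where its footprints changed by -0.03 and its loading by -0.47 (edgeR adjusted p = 0.911).

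Aminoacyl-tRNA synthetases, which charge transfer RNA with amino acids, moved the same way in smaller steps. Loading was called lower at 9 of 22 and higher at none, where 1.95% of all genes were called lower. The median loading change was -0.40, with a median footprint change of -0.00 and a median RNA ratio of 0.43. RNA was higher in ELR for 21 of the 22. GARS, the glycyl enzyme, had 379 and 373 CPM of footprints in ELR, against 433 and 417 CPM in EL. GARS RNA was 613 CPM in ELR and 346 CPM in EL, and its loading fell by 1.00 ± 0.09 on the log2 scale (edgeR adjusted p = 3.85e-12). NARS, the asparaginyl enzyme, changed by -0.92 ± 0.09 and CARS, the cysteinyl enzyme, by -1.17 ± 0.15. YARS, the tyrosyl enzyme, changed by -0.89 ± 0.13, and TARS, the threonyl enzyme, by -0.57 ± 0.08, in TARS with footprints of 370 and 373 CPM in ELR, against 372 and 350 CPM in EL. The count of called synthetases was 6 without ELR replicate 1, 7 without ELR replicate 2, 9 without either EL replicate and 0 with the ER-Src spread.

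**Figure D3:**
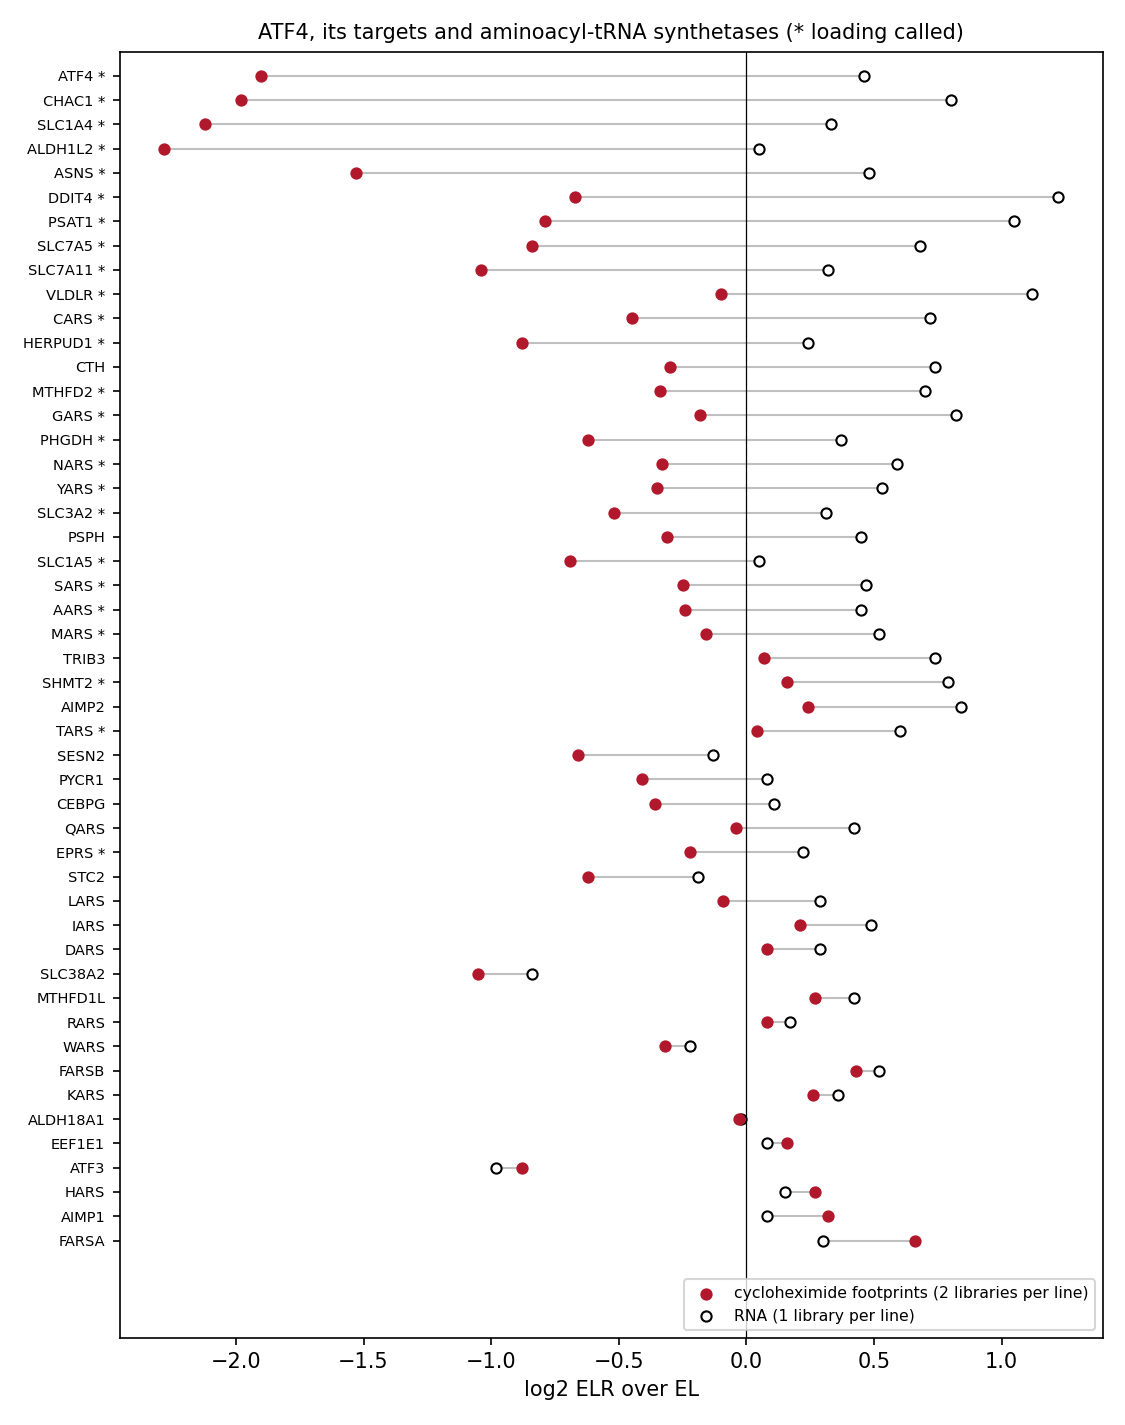
Log2 change, ELR over EL, of cycloheximide footprints (filled points, 2 libraries per line) and RNA (open points, 1 library per line) for ATF4 and, ordered by loading change, its targets and the aminoacyl-tRNA synthetases; stars mark called loading. In ATF4 and the upper rows RNA lay to the right of 0 and footprints to the left, and at the foot of the plot the points come together.

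ATF4 acts through a sequence called the C/EBP-ATF response element, and some of these genes have a match to it near a start. The 8-base motif TGATGNAA was searched on both strands between 250 bases before and 50 bases after each start listed by RefSeq (GRCh38.p14). It was present at 42.9% of amino acid stress targets with a listed start and 36.8% of synthetases, against 2.64% of all genes tested. Of all genes with lower loading 9.7% had it, a set that includes the called members of both lists. The match is a description of the promoter letters and not a measured binding site. Windows of 30 bases around the motif (capitals) are shown for 6 genes described here to show the letters that were counted. Most members of both lists have no such match in the window.
ASNS, chr7:97872458-97872487, minus strand: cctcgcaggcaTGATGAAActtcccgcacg
SLC3A2, chr11:62881719-62881748, plus strand: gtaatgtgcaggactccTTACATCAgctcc
GARS, chr7:30594834-30594863, plus strand: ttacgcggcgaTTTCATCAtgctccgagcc
NARS, chr18:57621804-57621833, minus strand: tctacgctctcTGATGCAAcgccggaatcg
CARS, chr11:3057407-3057436, minus strand: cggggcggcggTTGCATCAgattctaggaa
TARS, chr5:33440956-33440985, plus strand: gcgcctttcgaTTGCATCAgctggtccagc
All are written 5′ to 3′ on the strand of the gene. ASNS and NARS hold the motif as spelled above, and the other 4 hold its reverse complement.

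ATF4 belongs to the messages with regulatory upstream reading frames, and most of that list did not pass. Of 21 measured, 4 were called lower and none higher, where 1.95% of all genes were called lower. The median loading change of the list was -0.23. ODC1, the first enzyme of polyamine synthesis, rose in footprints to 228 and 243 CPM in ELR, against 157 and 140 CPM in EL. ODC1 RNA was 650 CPM in ELR and 285 CPM in EL, and loading changed by -0.54 ± 0.11 (edgeR adjusted p = 0.000935). AZIN1, an activator of ODC1, changed by -0.60 ± 0.16 (edgeR adjusted p = 0.0293) and IBTK, an inhibitor of Bruton's kinase, by -0.90 ± 0.22 (edgeR adjusted p = 0.0117). ATF4 was the only one of the 4 that passed without ELR replicate 1, without ELR replicate 2 and with the ER-Src spread. Other stress messages with upstream frames were at a low level or did not pass. PPP1R15A, which recruits the eIF2 phosphatase, was not among the called genes, with a loading change of -0.05 ± 0.21. DDIT3 (CHOP) had 1.64 and 1.17 CPM of footprints in ELR and 1.63 and 1.96 CPM in EL, too few for a difference to be detectable. PPP1R15A and DDIT3 were added to this account after their values were seen.

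Ribosomal proteins were 40 of the 114 genes with higher loading in ELR. Of 47 large-subunit proteins, 25 were called higher and none lower, where 1.08% of all genes were called higher. For the small subunit, 15 of 30 were called higher and none lower. Their median loading change was 0.27 in the large and 0.32 in the small subunit, beside -0.05 for all genes. Footprints rose at 46 of 47 large-subunit and all 30 small-subunit genes, where they rose at 16.1% of all genes tested. The median footprint change was 0.61 in each subunit. The median RNA ratio was 0.31 in the large and 0.40 in the small subunit, so RNA and loading each accounted for part of the footprint change. None of the 40 was called with the ER-Src spread. The log2 standard error with that spread was 0.33 for RPS19 and 0.34 for RPL37A, beside a median of 0.47 over all genes.

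RPS19, a small-subunit protein, had 2189 and 2183 CPM of footprints in ELR, against 1228 and 1207 CPM in EL. Its RNA was nearly the same, 365 CPM in ELR and 358 CPM in EL. Loading changed by 0.82 ± 0.08 (edgeR adjusted p = 6.84e-11). RPS27 had 999 and 1011 CPM of footprints in ELR, against 450 and 464 CPM in EL, with RNA at 388 CPM in ELR and 311 CPM in EL, and its loading changed by 0.82 ± 0.09 (edgeR adjusted p = 1.45e-09). RPL37A had 2712 and 2663 CPM in ELR, against 1381 and 1404 CPM in EL, with RNA at 304 CPM in ELR and 258 CPM in EL. The loading change of RPL37A was 0.71 ± 0.08 (edgeR adjusted p = 3.95e-08). For RPL29 it was 0.77 ± 0.09, with RNA of 261 CPM in ELR and 294 CPM in EL. RPL26, RPL37 and RPL21 changed by 0.52, 0.53 and 0.45, and RPS13, RPS15A and RPSA by 0.64, 0.38 and 0.45. In each of these genes footprints were called higher in ELR, as at 16.1% of all genes tested. At the extremes, named after their values were seen, RPS29 changed by 1.32 ± 0.28 on 47 RNA counts in ELR and 50 in EL, and RPL41 by -0.64 ± 0.29, which did not pass. Ribosomal protein genes have many processed copies in the genome, and the sources used here do not say how reads shared with them were counted, so single values are uncertain.

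Called large-subunit genes numbered 5 without ELR replicate 1, 6 without ELR replicate 2, 23 without EL replicate 1 and 18 without EL replicate 2. For the small subunit the counts were 3 without ELR replicate 1, 4 without ELR replicate 2, 14 without EL replicate 1 and 13 without EL replicate 2. The list medians stayed between 0.27 and 0.28 for the large and between 0.30 and 0.32 for the small subunit in those fits. With the much shallower harringtonine footprints over the same RNA libraries the medians were 0.09 and 0.11, and no member was called in either subunit. On the scale of log2 footprints per RNA, large-subunit genes stood at a median of 1.53 in ELR, 1.10 in EL and 0.53 in EH. Small-subunit genes stood at 1.59 in ELR, 1.29 in EL and 0.66 in EH.

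Other TOP messages were split. Of 22, 3 were called higher and 4 lower, where 1.08% of all genes were called higher and 1.95% lower. The median loading change was 0.03. Footprints rose at 19, where they rose at 16.1% of all genes tested, and RNA was higher in ELR for all 22. TPT1, a growth-related calcium-binding protein, had 1527 and 1537 CPM of footprints in ELR, against 784 and 760 CPM in EL. TPT1 RNA was 2022 CPM in ELR and 1585 CPM in EL, a loading change of 0.63 ± 0.05 (edgeR adjusted p = 4.14e-12). The elongation factor subunits EEF1G and EEF1A1 changed by 0.32 ± 0.05 and 0.21 ± 0.04 (edgeR adjusted p = 7.17e-05 and 0.00224). EEF2, the translocation factor, did not pass, with 3737 and 3892 CPM of footprints in ELR, 2669 and 2798 CPM in EL and a loading change of -0.08 ± 0.05 (edgeR adjusted p = 0.47). NACA, which binds nascent chains, changed by -0.34 ± 0.08, and VIM by -0.24 ± 0.04. One gene of the 3, TPT1, was called without either ELR replicate.

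The pyrimidine tract itself was looked for in the 5 bases either side of each start listed by RefSeq, as a C followed only by C or T over at least 7 bases. It was found in 76.3% of large-subunit genes, 83.3% of small-subunit genes and 75.0% of other TOP messages with a listed start, against 11.8% of all genes tested. Among ribosomal proteins, the 49 genes with a tract had a median loading change of 0.31 and the 13 without one 0.22. Of these, 24 with a tract and 8 without one were called higher. Outside them, 993 genes with a tract and 7739 without had medians of -0.05 and -0.06. The tract (capitals) is shown in 30-base windows for 4 ribosomal proteins with higher loading and for 2 other TOP messages, 5′ to 3′ on the strand of the gene, GRCh38.p14.
RPL37A, chr2:216498834-216498863, plus strand: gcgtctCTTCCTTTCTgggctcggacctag
RPS27, chr1:153990752-153990781, plus strand: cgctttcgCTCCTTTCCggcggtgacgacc
RPL29, chr3:51995876-51995905, minus strand: cagccCCTTTCTCTTCCggttctaggcgct
RPL26, chr17:8383174-8383203, minus strand: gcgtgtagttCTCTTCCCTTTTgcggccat
TPT1, chr13:45341164-45341193, minus strand: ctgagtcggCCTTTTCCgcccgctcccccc
EEF1A1, chr6:73521013-73521042, minus strand: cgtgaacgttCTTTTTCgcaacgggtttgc
The coding regions of the called genes also differed in length. Genes called higher had a median of 858 bases and genes called lower one of 1581 bases, beside 1458 for all genes tested. Large- and small-subunit ribosomal proteins had medians of 471 and 445 bases. The 74 called higher that are not ribosomal proteins had 1423. Oxidative phosphorylation genes were shorter still, at a median of 424 bases, and their median loading change was -0.09. The part of length in the results was not tested.

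Initiation factors, which bring the ribosome to the message, had calls in 1 direction. Of 36, 6 were called lower and none higher, with a median loading change of -0.15, a median footprint change of 0.20 and a median RNA ratio of 0.37. EIF4G2 had 673 and 669 CPM of footprints in ELR and 649 and 660 CPM in EL, with RNA at 2168 CPM in ELR and 1704 CPM in EL. Its loading changed by -0.31 ± 0.06 (edgeR adjusted p = 0.000437). EIF2S2, a subunit of eIF2, changed by -0.42 ± 0.09, and EIF4EBP1, the repressor of the cap-binding factor that mTOR inactivates, by -0.72 ± 0.20 (edgeR adjusted p = 0.00143 and 0.0372). None of the 6 was called without either ELR replicate. Where 1.95% of all genes were called lower, 2 of 25 in the mTOR pathway were called lower and none higher. They were PDCD4, an inhibitor of initiation, at -1.34 ± 0.30, and DDIT4, a stress-induced inhibitor of mTOR, at -1.89 ± 0.47 on 39 RNA counts in ELR and 14 in EL. The list had no call without ELR replicate 1 or without ELR replicate 2, 1 without EL replicate 2 and 2 without EL replicate 1.

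Glycolytic enzymes and actin genes also had lower calls and no higher ones, where 1.95% of all genes were called lower and 1.08% higher. Of 21 glycolytic genes, 7 were called lower and none higher, with a median loading change of -0.22, a footprint median of 0.02 and an RNA median of 0.23. ENO1, enolase, had 4360 and 4356 CPM of footprints in ELR and 4415 and 4543 CPM in EL, while its RNA was 2486 CPM in ELR and 1713 CPM in EL. The ENO1 loading change was -0.58 ± 0.05 (edgeR adjusted p = 4.87e-13). LDHA, lactate dehydrogenase, fell in footprints to 3319 and 3262 CPM in ELR, against 4198 and 4062 CPM in EL, and in loading by 0.48 ± 0.05 on the log2 scale (edgeR adjusted p = 8.84e-10). GAPDH, ALDOA and PGK1 changed by -0.31, -0.41 and -0.42. Of 33 actin and contractile genes, 12 were called lower and none higher, with a median loading change of -0.20, a footprint median of -0.45 and an RNA median of -0.21. FLNA, filamin, had 1200 and 1207 CPM of footprints in ELR, against 1682 and 1687 CPM in EL, and a loading change of -0.35 ± 0.05 (edgeR adjusted p = 9.8e-06). ACTN1 and ACTN4, the actinins, changed by -0.42 and -0.47, VCL, vinculin, by -0.54 and ACTB by -0.27. ACTB shares most of its coding sequence with other actins, so its value is uncertain. Without ELR replicate 1 the counts were 2 glycolytic and 0 actin genes, and without ELR replicate 2 they were 3 and 3. Without EL replicate 2 there were 8 actin genes, and with the ER-Src spread none in either list.

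Of 22 heat shock genes, 5 were called lower and none higher, where 1.95% of all genes were called lower. The loading change was below 0 at 14 of the 22, and RNA was higher in ELR for 19. HSP90AA1 had 5067 and 4891 CPM of footprints in ELR, against 3301 and 3136 CPM in EL, and RNA of 9686 CPM in ELR and 5247 CPM in EL, a loading change of -0.25 ± 0.04 (edgeR adjusted p = 6.65e-05). CCT7, CCT2, CCT5 and TCP1, subunits of the chaperonin that folds actin and tubulin, changed by -0.47, -0.25, -0.21 and -0.28. The list had 1 call without ELR replicate 1, none without ELR replicate 2, and 3 without either EL replicate. In the endoplasmic reticulum, 4 of 22 folding genes were called lower. Among them, XBP1, a transcription factor of the unfolded protein response, had 56.7 and 58.3 CPM of footprints in ELR, against 106 and 117 CPM in EL, and a loading change of -0.73 ± 0.16 (edgeR adjusted p = 0.00322). The list had no call without ELR replicate 1, ELR replicate 2 or EL replicate 2, and 2 without EL replicate 1.

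**Figure D4:**
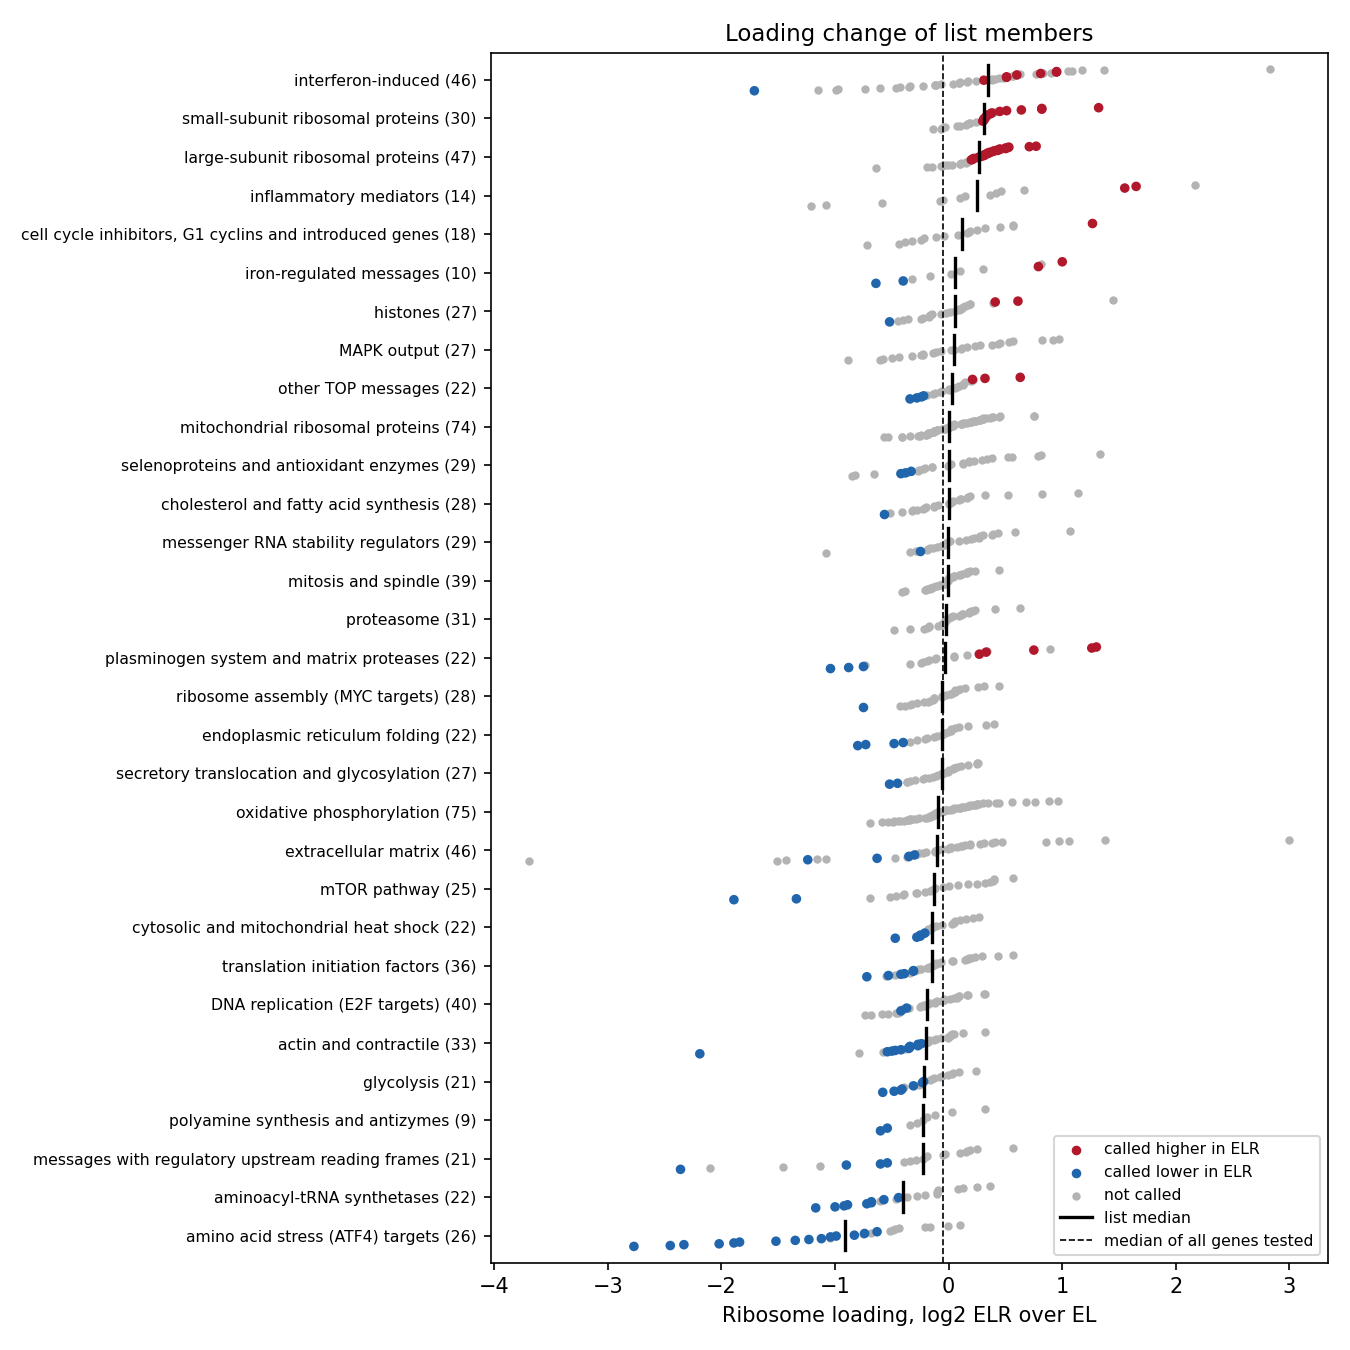
Loading change, log2 ELR over EL, of each measured member of 31 gene lists (rows, ordered by their median; black bars), with called members in colour and the median of all genes tested as a dashed line. Ribosomal proteins and interferon-induced genes lie furthest to the right among the larger lists, and amino acid stress targets and synthetases furthest to the left.

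Interferon-induced genes, which act against viruses, were much lower in ELR in both measures. RNA was lower in ELR for all 46 measured, with a median ratio of -3.22. Footprints fell at 44, with a median of -2.73, where they fell at 17.3% of all genes tested. Their loading median was 0.35, with 7 called higher and 1 lower, where 1.08% of all genes were called higher and 1.95% lower. IFI44 had 148 and 137 CPM of footprints in ELR, against 228 and 231 CPM in EL, with RNA at 196 CPM in ELR and 549 CPM in EL. Its loading changed by 0.81 ± 0.11 (edgeR adjusted p = 1.57e-06). OASL and IFIT2 each changed by 0.95. IRF9, a transcription factor of the interferon response, went the other way. IRF9 footprints were 11.5 and 11.1 CPM in ELR, against 140 and 159 CPM in EL, and RNA was 28.1 CPM in ELR and 112 CPM in EL, a loading change of -1.71 ± 0.29 (edgeR adjusted p = 6.6e-05, and 0.0641 with the ER-Src spread). MX1, an antiviral GTPase, had 9 and 6 footprint counts in ELR, against 1856 and 1668 in EL, and its loading change of -0.99 ± 0.37 did not pass (edgeR adjusted p = 0.17). Without ELR replicate 1 the list had 1 call and without ELR replicate 2 it had 2, all higher. The IRF9 call was lost in both fits (edgeR adjusted p = 0.0993 and 0.0785).

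Extracellular matrix genes followed their RNA. Footprints fell at 40 of 46, where they fell at 17.3% of all genes tested. Their median change was -1.41, beside a median RNA ratio of -1.31. Loading was called lower at 4 and higher at none, where 1.95% of all genes were called lower. COL1A2, a chain of type I collagen, had 21 and 25.6 CPM of footprints in ELR, against 1314 and 1290 CPM in EL, and RNA of 36.4 CPM in ELR and 874 CPM in EL. Its loading changed by -1.24 ± 0.21 (edgeR adjusted p = 6.07e-05), and not past the threshold without ELR replicate 1 (edgeR adjusted p = 0.112). COL1A1, the other chain, had 253 and 269 CPM of footprints in ELR, against 1544 and 1565 CPM in EL, with a loading change of -0.28 ± 0.24 that did not pass. FN1, fibronectin, changed by -0.35 ± 0.08, COL5A2 by -0.63 ± 0.11 and COL6A3 by -0.30 ± 0.06. The list had no call without ELR replicate 1 and 1 without ELR replicate 2.

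The plasminogen system and matrix proteases had calls both ways, 5 higher and 3 lower of 22. Over all genes tested, 1.08% were called higher and 1.95% lower. MMP1, interstitial collagenase, had 5616 and 5534 CPM of footprints in ELR, against 1486 and 1424 CPM in EL, and RNA of 5097 CPM in ELR and 1668 CPM in EL. Its loading changed by 0.33 ± 0.05 (edgeR adjusted p = 4.94e-06). MMP3, stromelysin, had similar footprints, 73.6 and 71.1 CPM in ELR and 63.8 and 74.6 CPM in EL, at RNA of 43.2 CPM in ELR and 98.2 CPM in EL. MMP3 loading changed by 1.26 ± 0.21. SERPINB2, an inhibitor of plasminogen activators, changed by 1.30 ± 0.28, and its relative SERPINE2 by -1.04 ± 0.23. Without ELR replicate 1 none of the list was called, and without ELR replicate 2 there were 2 higher. Of 14 inflammatory mediators measured, 2 were called higher. PTGS2, the inducible cyclooxygenase, had 30 and 25.6 CPM of footprints in ELR, against 6.13 and 4.91 CPM in EL, and a loading change of 1.65 ± 0.40 (edgeR adjusted p = 0.00905). NFKBIZ, a nuclear regulator of NF-κB, changed by 1.55 ± 0.37. Neither was called without ELR replicate 1, ELR replicate 2 or EL replicate 2. IL1B was far higher in ELR in footprints, at 472 and 380 counts in ELR and 10 and 7 counts in EL, but its 3 RNA counts in EL left the loading change undetermined (-0.59 ± 0.82).

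Of 10 iron-regulated messages, 2 were called higher and 2 lower, where 1.08% of all genes were called higher and 1.95% lower. Iron regulatory proteins repress ferritin through an element near the start of the message and stabilise the transferrin receptor message through elements after the coding region. FTL, the ferritin light chain, had 232 and 242 CPM of footprints in ELR, against 146 and 153 CPM in EL, at RNA of 123 CPM in ELR and 155 CPM in EL. Its loading changed by 1.00 ± 0.14 (edgeR adjusted p = 1.28e-06), and it was called without each of the 4 footprint libraries. FTH1, the heavy chain, had 68.7 and 72.2 CPM of footprints in ELR and 93.6 and 83.4 CPM in EL, while its RNA was 101 CPM in ELR and 222 CPM in EL. FTH1 loading changed by 0.79 ± 0.16 (edgeR adjusted p = 0.00133). ACO1, which is itself an iron regulatory protein when it lacks its iron cluster, changed by -0.64 ± 0.16, and TFRC, the transferrin receptor, by -0.40 ± 0.11. FTL was the only one of the 10 genes called without ELR replicate 1 or without ELR replicate 2, and none was called with the ER-Src spread. Ferritins also have processed copies in the genome, so their values carry the same uncertainty as the ribosomal proteins.

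Several large lists held no call, which does not show that their members did not differ. None of 74 mitochondrial ribosomal proteins, 75 oxidative phosphorylation genes, 31 proteasome genes, 39 mitosis genes or 27 genes of the MAPK output was called in loading by edgeR. Footprints of the MAPK output, the genes switched on below RAS, rose at 20 of 27, where they rose at 16.1% of all genes tested. The median footprint change of that list was 0.90, beside a median RNA ratio of 1.04. Of 40 DNA replication genes, 2 were called lower (MCM7 at -0.37 and MCM5 at -0.42). Over all genes tested, 1.95% were called lower and 1.08% higher. Histones had 2 calls higher (HIST1H2BC at 0.61, HIST1H2AG at 0.41) and 1 lower (H3F3B at -0.52), and as near-identical copies they are uncertain. Other lists held few calls, which are given gene by gene and not read as results about the lists. Lower loading was called at 3 of 29 selenoproteins and antioxidant enzymes (TXNRD1 at -0.33, SOD1 at -0.42 and PRDX6 at -0.38) and at 2 of 27 genes of secretory translocation (SSR3 at -0.52 and SRP9 at -0.45). It was also called lower at 1 of 29 regulators of message stability (YBX1, which binds and stabilises messages, at -0.25). In ribosome assembly it was called lower at 1 of 28 genes (BOP1 at -0.75), with no call higher in these 4 lists. None of these 6 lists, from DNA replication to ribosome assembly, had a call without ELR replicate 1 or without ELR replicate 2. Without EL replicate 2, the lists of DNA replication, antioxidant enzymes and ribosome assembly had none either.

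HRAS and TERT, introduced into lines of this kind, and cell cycle genes gave 1 call. HRAS had 150 and 165 CPM of footprints in ELR, against 36.4 and 35.8 CPM in EL. HRAS RNA was 31.7 CPM in ELR and 17.6 CPM in EL, from 88 and 41 counts, and loading changed by 1.26 ± 0.31 (edgeR adjusted p = 0.0117). The HRAS call was lost without ELR replicate 1, ELR replicate 2 or EL replicate 2 (edgeR adjusted p = 0.112, 0.145 and 0.0679) and with the ER-Src spread (0.87). TERT, the telomerase reverse transcriptase, had 217 and 260 CPM of footprints in ELR and 181 and 190 CPM in EL, with a loading change of 0.19 ± 0.15 that did not pass. CCND1, cyclin D1, had 468 and 505 CPM in ELR, against 278 and 291 CPM in EL, and a loading change of -0.44 ± 0.13 (edgeR adjusted p = 0.0645). MYC changed by -0.32 ± 0.20, CDKN2A by 0.45 ± 0.25, CDKN1A by 0.57 ± 0.58 and OAZ1, the antizyme that degrades ODC1, by -0.12 ± 0.11, none of them past the threshold.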

How the data were processed

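The deposited values are counts per RefSeq transcript, from reads that the authors placed on hg19 with TopHat, per the submitters' processing notes (no version given); the counting program and its use of strand are not given in the sources used here. The 36499 rows were reduced to the transcript with the highest mean count for each of 19137 symbols. Genes passed edgeR 4.0.16's filterByExpr (minimum count 10, total 15) with at least 10 RNA counts. Loading was tested as (ELR footprints minus EL footprints) minus (ELR RNA minus EL RNA) with TMM factors and 4 group means, leaving 2 residual degrees of freedom; RNA had 1 library per line and was not tested alone. Analyses used R 4.3.3 and Python 3.11.15. The fit was also run on simulated counts in which RNA and footprints had the same spread, so that run does not test how much RNA varies. Intervals and standard errors cover counting error and the spread between footprint libraries.

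Members and gene lists were chosen with earlier results of these data known. Named genes were those called in both the main fit and the ER-Src spread (up to 15 each way, at least 50 RNA counts, mean count above the median), up to 5 called members per list with the smallest p, and 16 fixed genes. Promoter letters came from RefSeq, GRCh38.p14. The alternatives tried were other scalings, filters, DESeq2 1.42.0, the ER-Src spread, all BJ libraries, summed transcripts, harringtonine footprints, a replicate block and leaving out each footprint library.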

Additional observations from a re-analysis of the deposited data

How the results depend on the processing

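Loading calls numbered 320 (114 higher, 206 lower) as reported. They were 71 (48 and 23) with DESeq2, which gave an adjusted p to 936 genes and none to 144 of the 320, and 5 (0 and 5) with the ER-Src spread. Summing transcripts of a symbol gave 142 (49 and 93), and harringtonine footprints, with far fewer counts per library, 28 (6 and 22) of 5730 genes. Size factors lowered the lower calls to 136 of 277. Leaving out 1 footprint library gave 33 to 241 calls, 13 to 93 higher and 20 to 148 lower, fewest without ELR replicate 1. Footprint calls, 3519 as reported, were 1241 (587 higher and 654 lower) with DESeq2, 1496 (595 and 901) with the ER-Src spread and 2120 to 2750 without 1 library (1011 to 1307 higher and 1109 to 1448 lower). Fewer libraries shrink each such fit; the cause of the other differences was not tested. The called genes kept the sign of loading wherever measured (313 of the 320 with at least 50 RNA counts, all 320 otherwise) in every alternative except harringtonine, where 255 of 283 did. There, 4 called genes named by rule reversed: ODC1 to 0.03, SSR3 to 0.24, HIST1H2BC to -0.60 and IRF9 to 0.43. VCP (0.06) and HIST1H4L (-0.61), called outside the lists, and the uncalled MX1 (0.18) and EEF2 (0.01) changed sign too. Deviations of same-numbered footprint libraries correlated at 0.0498. Most of each deviation was counting noise (chi-square per gene 1.114 in ELR and 1.168 in EL). A low correlation therefore cannot show whether the replicate numbers pair the libraries. With a replicate block the count was 446 (161 and 285), including all 320. All 12 lists with a median of at least 0.2 in size kept its sign in every alternative. Every alternative uses the same RNA libraries of ELR and EL, so kept signs of genes or lists do not test the RNA ratio. Depth limits genes with few RNA counts: 2186 of the genes tested had under 50 over both RNA libraries, and the median standard error of loading was 0.32.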

Other observations

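Of the 320 genes with a called loading change, 170 belonged to none of the lists, 52 higher and 118 lower in ELR. The 12 of these with the smallest p were looked at after their values were seen. Apart from SFRP1, S100A6, a calcium-binding protein, had 2591 and 2557 CPM of footprints in ELR and 2321 and 2384 CPM in EL, at RNA of 1051 CPM in ELR and 650 CPM in EL, a loading change of -0.56 ± 0.06 (edgeR adjusted p = 1.36e-09). TMSB10, which binds actin monomers, had 1193 and 1109 CPM of footprints in ELR and 1260 and 1245 CPM in EL, with RNA at 223 CPM in ELR and 147 CPM in EL, and changed by -0.71 ± 0.11 (edgeR adjusted p = 6.86e-06). DKK1, a secreted Wnt antagonist like SFRP1, went the opposite way from it. DKK1 footprints were 397 and 401 CPM in ELR, against 625 and 603 CPM in EL, and its RNA was 80.7 CPM in ELR and 224 CPM in EL, a loading change of 0.85 ± 0.12 (edgeR adjusted p = 4.94e-06). GAS6, a ligand of the AXL receptor, had lower footprints in ELR, 117 and 125 CPM against 157 and 175 CPM in EL, with RNA at 183 CPM in ELR and 142 CPM in EL, and changed by -0.83 ± 0.14. DYNC1H1, the dynein heavy chain, changed by -0.49 ± 0.07, BZW1, a regulator of start codon choice, by -0.44 ± 0.08, and VCP, a segregase of the ubiquitin system, by -0.38 ± 0.07. None of these passed with the ER-Src spread apart from SFRP1. HIST1H4L, a histone H4 copy whose value is uncertain, had 754 and 799 CPM of footprints in ELR, against 157 and 173 CPM in EL. Its loading changed by 1.16 ± 0.17 with cycloheximide footprints and by -0.61 with harringtonine footprints over the same RNA libraries.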
